A study of Mus musculus with 235 samples.

Results

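The 10 genes described here belong to the NF-kappaB pathway and its inhibitors. They were listed by symbol, with earlier results of these data known, among them the rise of Nfkbia and the dependence of Traf5 on region. All 10 were found among the 27998 genes of the count table. They are the inhibitors Nfkbia and Nfkbib, the subunits Nfkb1 and Rela, the kinase Ikbkb, the adaptors Traf3, Traf5 and Traf6, and the receptors Il1r1 and Tnfrsf1a. Transcripts were counted in 8 punched brain regions of 30 adult male C57Bl/6 mice at 3 months of age. Of these, 15 received dexamethasone, a synthetic glucocorticoid, by intraperitoneal injection at 10 mg per kg, and 15 received saline as vehicle. Brains were perfused and removed 4 h after the injection. The regions are called PFC, AMY, PVN, CER, dCA1, dDG, vCA1 and vDG, as in the labels, and each gave 13 to 15 libraries per arm (235 in all, 118 vehicle and 117 dexamethasone).

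NF-kappaB is a family of dimeric transcription factors that drives inflammatory and survival genes. In resting cells the dimer of Rela (p65) with the processed product of Nfkb1 (p50) is held in the cytoplasm by IkappaB proteins such as the product of Nfkbia (IkappaB-alpha). Receptors for interleukin-1 and tumor necrosis factor signal through TRAF adaptors to the IkappaB kinase, which marks IkappaB for destruction and frees the dimer. Nfkbia is itself a known NF-kappaB target gene, and glucocorticoids are known to raise it in many cell types.

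The libraries held 268538 to 1451422 counts each (median 742957). Levels are given as CPM (counts scaled to library size, with TMM factors over all libraries), and changes as log2 fold changes from edgeR's quasi-likelihood test. A gene was called at a Benjamini-Hochberg adjusted p under 0.05 over all genes tested in that region, and "rose" and "fell" are used for called changes only. The tissue labels were compared with defining markers in vehicle libraries. CER libraries lacked the granule cell gene Gabra6 (0 counts in all 15) and had a median of 0 CPM of the Purkinje cell gene Pcp2, so they are called by their label only. Prox1, a dentate granule cell gene, had a median of 527.2 CPM in dCA1 and 418.6 CPM in dDG, against 104.6 CPM in vCA1 and 193.5 CPM in vDG. The mean level of 6 dentate markers (Dsp, Stxbp6, Lct, Tdo2, Plk5 and Npnt, as log2 of CPM + 1) was also highest in dCA1, at 6.27, against 5.91 in dDG, 4.16 in vDG and 3.28 in vCA1, so dCA1 and dDG too are names of labels only. None of the 4 amygdala markers had its highest median in AMY (Cyp26b1 was highest in CER, and Dlk1, Prkcd and Rspo1 in PVN), so AMY is also used as a label. Gabra6 reached 10 CPM or more (12.2 to 334.3 CPM) in 10 libraries. These were 7 of vDG (vehicle 4, 5, 14 and 15, dexamethasone 3, 4 and 13), vCA1 vehicle 15, and dexamethasone 14 of CER and of PFC. Results of Nfkbia, Traf5 and Il1r1 in those 4 regions are also given without these libraries.

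Upstream sequence is shown for 3 of the genes because Nfkbia and Traf3 carry a match to the kappaB consensus and only Nfkbia was called, and because Traf5 was the gene whose response differed among regions. The windows cover 250 bases before to 50 bases after the RefSeq start in GRCm38.p6, read 5′ to 3′ on the gene's strand, and capitals mark the match.
Nfkbia promoter (chr12:55492598-55492897, minus strand): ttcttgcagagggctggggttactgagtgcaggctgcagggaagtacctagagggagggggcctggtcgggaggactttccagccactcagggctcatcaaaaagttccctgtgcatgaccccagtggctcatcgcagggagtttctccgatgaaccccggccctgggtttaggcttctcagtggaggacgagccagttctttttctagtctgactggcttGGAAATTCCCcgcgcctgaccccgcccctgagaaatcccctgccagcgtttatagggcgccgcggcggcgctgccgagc
Traf3 promoter (chr12:111166120-111166419, plus strand): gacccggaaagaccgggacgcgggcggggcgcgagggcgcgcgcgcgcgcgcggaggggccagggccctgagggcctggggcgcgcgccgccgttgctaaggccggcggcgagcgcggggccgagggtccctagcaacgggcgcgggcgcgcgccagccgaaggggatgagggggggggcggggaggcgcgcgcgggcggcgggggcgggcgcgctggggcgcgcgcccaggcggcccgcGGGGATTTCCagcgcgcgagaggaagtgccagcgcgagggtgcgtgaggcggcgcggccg
Traf5 promoter (chr1:192092550-192092849, minus strand): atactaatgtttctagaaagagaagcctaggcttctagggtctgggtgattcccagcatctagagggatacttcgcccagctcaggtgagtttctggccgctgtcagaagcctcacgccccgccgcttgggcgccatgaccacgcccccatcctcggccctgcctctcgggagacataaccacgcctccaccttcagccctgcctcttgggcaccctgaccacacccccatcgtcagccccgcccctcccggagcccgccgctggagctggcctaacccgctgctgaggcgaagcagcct
The kappaB motif searched was GGG, 2 bases of any kind and TTTCC, on both strands. It occurred at -29 from the start of Nfkbia (GGAAATTCCC as printed, a match on the other strand) and at -10 from the start of Traf3 (GGGGATTTCC). RefSeq windows were at hand for 8 of the 10 genes, Nfkb1 and Ikbkb excepted, and none of the other 6 held it. Among 32851 promoter windows of the same length, 1.63% held the motif. The glucocorticoid response element (GNACA, 3 bases of any kind, TGTNC) occurred in none of the 8 genes' windows and in 0.475% of all windows. The shorter glucocorticoid receptor motif AGAACA occurred in 19.0% of all windows and, among the 8 genes, in 1 of the windows of Il1r1 (TGTTCT at -131, a match on the other strand). These are matches of letters in short windows, and binding was not measured.

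Nfkbia (ENSMUSG00000021025, chr12:55489411-55492647, minus strand) rose in all 8 regions, by 1.15 to 1.66 on the log2 scale, or 2.19 to 3.15 times in mean CPM. In CER the vehicle libraries held 72.0 to 239.5 CPM (median 134.1, n = 15) and the dexamethasone libraries 370.2 to 606.8 CPM (median 453.4, n = 15). In AMY the ranges were 76.7 to 206.7 CPM (median 141.2, n = 15) and 294.9 to 508.1 CPM (median 405.6, n = 15). In PVN they were 75.2 to 168.6 CPM (median 107.4, n = 14) and 245.0 to 400.0 CPM (median 327.9, n = 15). In these 3 regions every dexamethasone library lay above every vehicle library. In vCA1 vehicle libraries held 71.6 to 206.4 CPM (median 132.4, n = 14) and dexamethasone libraries 268.7 to 539.3 CPM (median 341.6, n = 15). In PFC the ranges were 81.4 to 194.9 CPM (median 123.4, n = 15) and 282.5 to 411.7 CPM (median 345.9, n = 14). In dCA1 they were 83.8 to 223.4 CPM (median 143.2, n = 15) and 243.4 to 402.9 CPM (median 336.1, n = 13). Here too the arms did not overlap, although in dCA1 the gap was narrow. In dDG vehicle libraries held 90.4 to 241.1 CPM (median 143.0, n = 15) and dexamethasone libraries 219.3 to 470.1 CPM (median 375.4, n = 15). In vDG the ranges were 73.8 to 325.0 CPM (median 139.0, n = 15) and 294.3 to 618.2 CPM (median 353.3, n = 15). In each of dDG and vDG the arms overlapped, and 14 of 15 dexamethasone libraries lay above the highest vehicle library. The share of all genes whose arms do not overlap is not given here, so the separation of the arms is a description only.

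**Figure D1:**
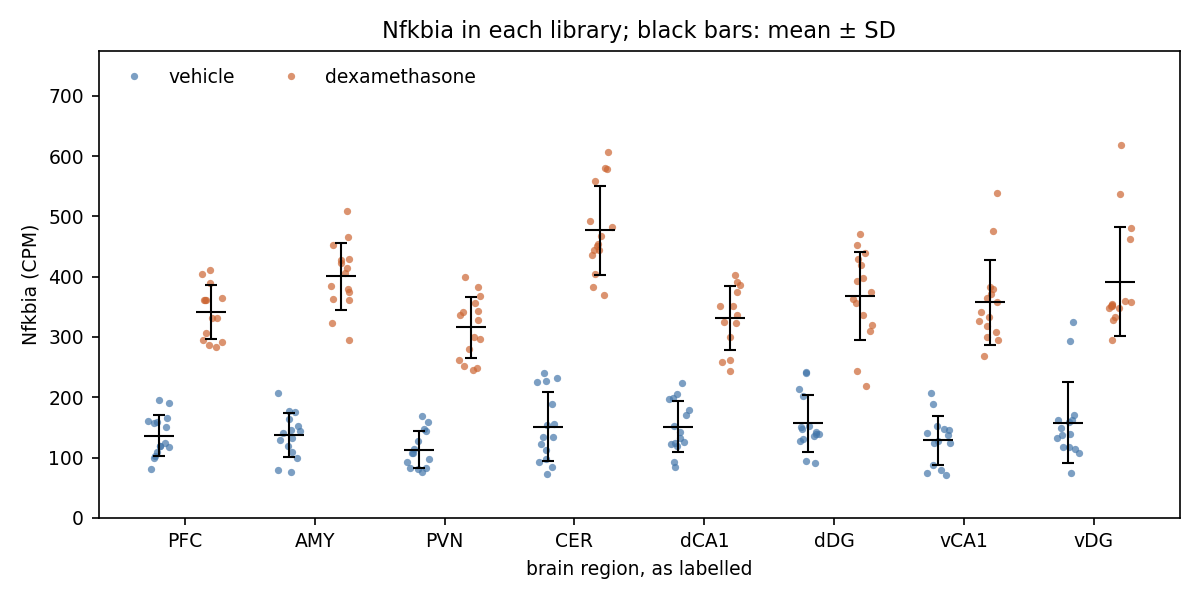
Nfkbia level in CPM (vertical axis) in each library of the 8 regions (horizontal axis), vehicle in blue and dexamethasone in orange, with black bars for the mean ± SD of each group. The arms do not overlap in 6 regions, and in dDG and vDG 14 of 15 dexamethasone libraries lie above the highest vehicle library.

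The log2 fold change of Nfkbia was 1.66 ± 0.13 (SE) in CER, 1.55 ± 0.11 in AMY, 1.49 ± 0.10 in PVN and 1.47 ± 0.13 in vCA1. It was 1.35 ± 0.15 in vDG, 1.33 ± 0.10 in PFC, 1.23 ± 0.13 in dDG and 1.15 ± 0.12 in dCA1. The largest of the 8 adjusted p-values was 3.05e-08 (edgeR). The rise of Nfkbia was known when the genes were listed, so these tests are not independent evidence. For comparison, the share of all tested genes that rose was 3.90% in CER, 3.86% in PFC, 3.57% in PVN, 3.54% in AMY, 3.41% in vCA1, 2.64% in vDG, 2.57% in dCA1 and 2.33% in dDG. Within each punching date and each plate that held 2 or more libraries of both arms, Nfkbia was higher after dexamethasone in 32 of 32 region and date combinations and in 32 of 32 region and plate combinations. Without the libraries holding Gabra6 the change was 1.63 in CER, 1.30 in PFC, 1.48 in vCA1 and 1.29 in vDG.

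A difference in the size of the Nfkbia response among the 8 regions was not shown. The F test of the 7 region-by-treatment terms gave F = 1.65 and an adjusted p of 0.994 (edgeR), in a test that called 1.17% of 11053 genes. The adjusted p lay between 0.0871 and 1.0 in 9 alternative fits, the lowest with animal as a block. The vehicle level was 157.4 ± 67.0 CPM (SD, n = 15) in vDG, 156.6 ± 46.6 in dDG, 151.4 ± 58.0 in CER, 151.2 ± 42.6 in dCA1, 136.7 ± 36.4 in AMY, 136.5 ± 34.2 in PFC, 129.0 ± 40.6 in vCA1 (n = 14) and 113.1 ± 31.1 in PVN (n = 14). No neighbours in this order differed by more than their SD, and the smallest adjusted p between neighbours was 0.404 (edgeR). These contrasts between neighbours did not use animal as a block. The 8-region test in vehicle libraries, which called 73.3% of genes, gave an adjusted p of 0.0957 for Nfkbia. With animal as a block, which the design allows because each animal gave several regions, the adjusted p was 6.33e-05.

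Nfkbib (ENSMUSG00000030595, chr7:28758251-28767512, minus strand), which encodes the second classical inhibitor IkappaB-beta, did not pass in any region. It passed the low-count filter in 4 regions, with log2 fold changes of 0.24 ± 0.17 (SE) in CER, 0.04 ± 0.20 in vDG, -0.26 ± 0.18 in vCA1 and -0.31 ± 0.17 in PFC. The smallest adjusted p was 0.453 (edgeR). In PFC, vehicle libraries held 10.3 to 22.6 CPM (median 15.1, n = 15) and dexamethasone libraries 4.27 to 17.7 CPM (median 12.5, n = 14), so the arms overlapped over most of their range. Its exons share 42 bases with Sirt2 and 314 bases with Ccer2 on the opposite strand. The use of strand in counting is not given in the sources used here, so reads in those bases cannot be assigned to one gene.

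The subunits Nfkb1 and Rela were not called in any region where they were tested. Nfkb1 (ENSMUSG00000028163, chr3:135584655-135691547, minus strand) was tested in all 8, and its log2 fold change ranged from -0.21 ± 0.14 (SE) in PFC to 0.10 ± 0.18 in dCA1 with adjusted p of 0.588 or more (edgeR). Its vehicle means lay between 24.2 and 27.6 CPM. In CER it held 15.8 to 45.5 CPM (median 26.1, n = 15) under vehicle and 18.3 to 41.6 CPM (median 27.4, n = 15) under dexamethasone, where Nfkbia rose by 1.66. Rela (ENSMUSG00000024927, chr19:5637483-5648130, plus strand) had a median of 8 counts per library and passed the filter only in PVN, at 0.04 ± 0.20. There, vehicle libraries held 2.60 to 19.4 CPM (median 14.3, n = 14) and dexamethasone libraries 4.03 to 20.0 CPM (median 13.0, n = 15). With no filter on low counts, the Rela estimate was lowest in dCA1, at -0.59 ± 0.24 (SE, unadjusted p = 0.0167, adjusted p = 0.252, edgeR). Against these standard errors, small changes in the subunits were not detectable at this depth.

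The balance of inhibitor to subunit transcripts was also compared within each library, where the scaling of libraries cancels except in the prior count. Protein was not measured. The quantity was log2 CPM of Nfkbia minus log2 CPM of a subunit, with a prior count of 2, and its mean was compared between arms by a two-sided permutation test with 100000 resamples. Against Rela it rose in all 8 regions, by 1.11 in dDG to 1.67 in vCA1, and each of these 8 adjusted p-values was 3.43e-05 or less (adjusted over 16 comparisons, 8 for each subunit). In dDG, for example, it went from 3.53 ± 0.62 (SD, n = 15) to 4.64 ± 0.40 (SD, n = 15). Against Nfkb1 it rose by 1.00 in dCA1 (adjusted permutation p = 0.00173) to 1.66 in CER (adjusted permutation p = 1.45e-05, from the smallest p that these resamples can give). The arms overlapped in this quantity against Rela in every region, and against Nfkb1 they did not overlap in AMY and CER. With neither subunit called, the quantity largely restates the change of Nfkbia. That rise was known when the genes were listed, so these p-values are not independent evidence.

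**Figure D2:**
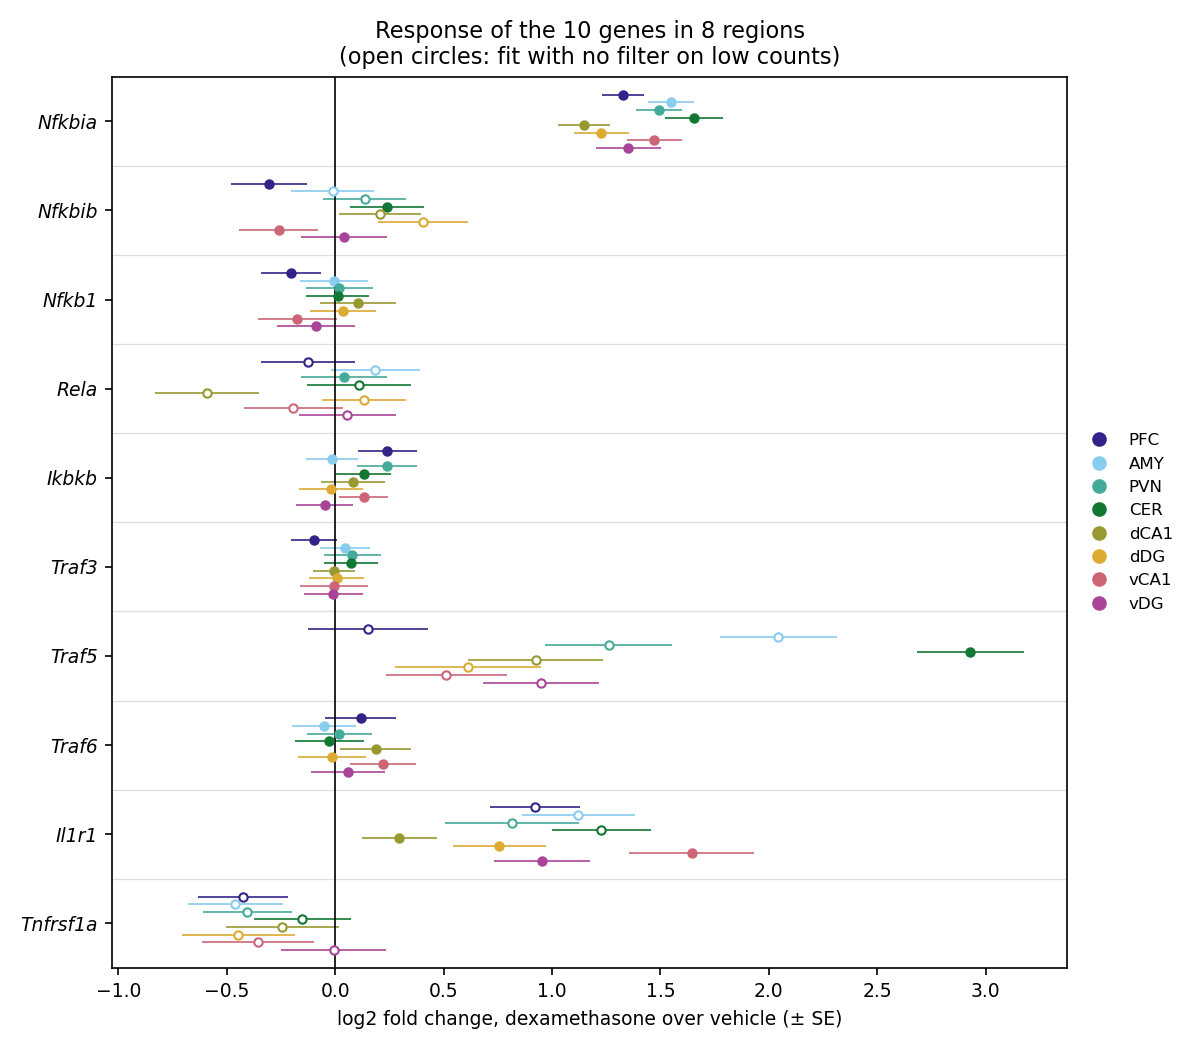
Log2 fold change of dexamethasone over vehicle (horizontal axis, bars ± SE) for each of the 10 genes, 1 circle per region in the color of the key. Filled circles passed the low-count filter and open circles come from the fit with no filter. Nfkbia lies between 1.15 and 1.66 in all regions, Traf5 runs from 0.15 in PFC to 2.93 in CER, and the subunits scatter around 0.

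Ikbkb (ENSMUSG00000031537, chr8:22659212-22706204, minus strand), the catalytic IkappaB kinase subunit IKK-beta, was tested in all 8 regions and called in none. Its log2 fold changes lay between -0.05 and 0.24, with SEs of 0.11 to 0.15 and adjusted p of 0.452 or more (edgeR). The highest estimate was in PFC, where vehicle libraries held 24.3 to 55.2 CPM (median 37.9, n = 15) and dexamethasone libraries 22.9 to 66.9 CPM (median 44.7, n = 14). Its vehicle level differed among regions (adjusted p = 0.0265, edgeR), from 35.1 ± 13.1 CPM (SD, n = 14) in PVN to 48.6 ± 11.5 CPM (SD, n = 15) in vDG, but with upper-quartile scaling the adjusted p was 0.0503.

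Of the adaptors, Traf3 and Traf6 were tested in all 8 regions and called in none. Traf3 (ENSMUSG00000021277, chr12:111166370-111267153, plus strand), known as a restraint on the noncanonical pathway, had log2 fold changes of -0.10 to 0.08 with SEs of 0.10 to 0.16. In dCA1, where the estimate was -0.01 ± 0.10 (SE), vehicle libraries held 117.5 to 218.2 CPM (median 171.2, n = 15) and dexamethasone libraries 119.2 to 213.7 CPM (median 160.4, n = 13). Both arms of dCA1 thus covered nearly the same range. Its vehicle level differed among regions (adjusted p = 2.84e-10, edgeR). It was highest in vCA1, at 208.9 ± 86.1 CPM (SD, n = 14), then dCA1, at 163.4 ± 32.5 CPM (n = 15), and lowest in PVN, at 106.6 ± 30.8 CPM (n = 14). No neighbours in this order differed by more than their SD. In the fit vCA1 against dCA1 was at the threshold (adjusted p = 0.049986, edgeR) and the other neighbours were not called. Traf6 (ENSMUSG00000027164, chr2:101678429-101701669, plus strand), the adaptor below the interleukin-1 and Toll-like receptors, had log2 fold changes of -0.05 to 0.22 with SEs of 0.15 to 0.17. Its highest estimate was in vCA1, where vehicle libraries held 11.6 to 30.5 CPM (median 17.3, n = 14) and dexamethasone libraries 11.4 to 32.7 CPM (median 21.3, n = 15).

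Traf5 (ENSMUSG00000026637, chr1:191997205-192092559, minus strand), an adaptor for tumor necrosis factor receptor family members such as CD40, rose in CER. Vehicle libraries of CER held 0 to 12.1 CPM (median 2.42, n = 15), and 2 of them had no count. Dexamethasone libraries held 10.2 to 32.5 CPM (median 23.7, n = 15). Of these, 14 lay above the highest vehicle library, and the means differed 7.90 times. The log2 fold change was 2.93 ± 0.25 (SE, adjusted p = 2.59e-12, edgeR), and 2.92 ± 0.25 without the 1 library holding Gabra6. Traf5 was scarce, with a median of 4 counts per library and 6 libraries at 0 in all, and passed the filter in CER alone. It did so through the dexamethasone arm, in which 14 libraries and no vehicle library reached the level the filter asks for, so its passing there already implies a difference.

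For that reason the values of all 8 regions are set side by side from the fit with no filter, in which 2.53% of genes rose in PFC, 2.34% in CER, 2.28% in vCA1, 2.18% in AMY, 2.11% in PVN, 1.79% in dCA1, 1.76% in vDG and 1.40% in dDG. In AMY Traf5 went from 0 to 10.7 CPM (median 3.47, n = 15) to 7.56 to 30.6 CPM (median 16.7, n = 15), with an estimated change on the log2 scale of 2.04 ± 0.27 (SE, adjusted p = 3.10e-07, edgeR). In PVN it went from 0.713 to 6.49 CPM (median 3.28, n = 14) to 2.08 to 12.9 CPM (median 8.00, n = 15), a change of 1.26 ± 0.29 (SE, adjusted p = 0.00378, edgeR). In both regions the arms overlapped, with 11 of 15 dexamethasone libraries of AMY and 8 of 15 of PVN above the highest vehicle library. In vDG it went from 0 to 8.47 CPM (median 4.70, n = 15) to 4.60 to 17.3 CPM (median 7.87, n = 15). The change in vDG was 0.95 ± 0.27 (SE, adjusted p = 0.0391, edgeR), and without the 7 libraries holding Gabra6 it was 0.87 ± 0.29 with an adjusted p of 0.141, so the vDG call was lost without them. The other estimates were 0.93 ± 0.31 (SE) in dCA1, 0.51 ± 0.28 in vCA1, 0.61 ± 0.34 in dDG and 0.15 ± 0.28 in PFC, with adjusted p of 0.110, 0.459, 0.532 and 0.873 (edgeR). In PFC, vehicle libraries held 1.30 to 9.03 CPM (median 5.30, n = 15) and dexamethasone libraries 1.04 to 14.8 CPM (median 6.45, n = 14), and 3 of 14 dexamethasone libraries lay above the highest vehicle library, 1 below the lowest and 10 within the vehicle range. Without the libraries holding Gabra6 the PFC estimate was -0.0049 ± 0.28 (SE, adjusted p = 0.996, edgeR), and the vCA1 estimate was 0.47 ± 0.28 and not called.

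The dependence of the Traf5 response on region was known when the genes were listed, so the tests of it are not independent evidence. The 8-region test gave F = 10.3 and an adjusted p of 3.28e-08 (edgeR). Traf5 entered it through 33 dexamethasone libraries (14 of CER and 11 of AMY) and 1 vehicle library, so its passing the filter already favours a difference. With no filter the test gave F = 10.2 and an adjusted p of 6.68e-08 (edgeR), and called 0.468% of 21594 genes. The adjusted p was 8.17e-08 or below in the 8 alternatives that tested the gene. Of the 10 genes it was the only one that this test called. The CER response exceeded the mean of the other 7 regions by 2.01 ± 0.30 (SE) on the log2 scale (adjusted p = 4.94e-07, edgeR), in a contrast that called 0.498% of genes, and with no filter by 2.02 ± 0.31 (adjusted p = 8.88e-07, edgeR), where 0.190% were called. The same contrast gave 1.00 ± 0.30 for AMY (adjusted p = 0.464) and -1.17 ± 0.30 for PFC (adjusted p = 0.0534), neither of which passed. Under vehicle the highest mean was in PFC (5.77 ± 2.21 CPM, SD, n = 15) and the lowest was in CER (2.87 ± 2.95 CPM, SD, n = 15). No neighbours in the vehicle order differed by more than their SD, and at these counts vehicle levels were too low for the 8-region test. Within punching dates the CER difference lay between 1.69 and 3.11 in 4 dates on the log2 CPM scale, and within plates between 1.96 and 2.78 in 4 plates. A noncoding gene, Gm26879, shares 205 exon bases with Traf5 on the opposite strand and had 3 counts in all libraries together.

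**Figure D3:**
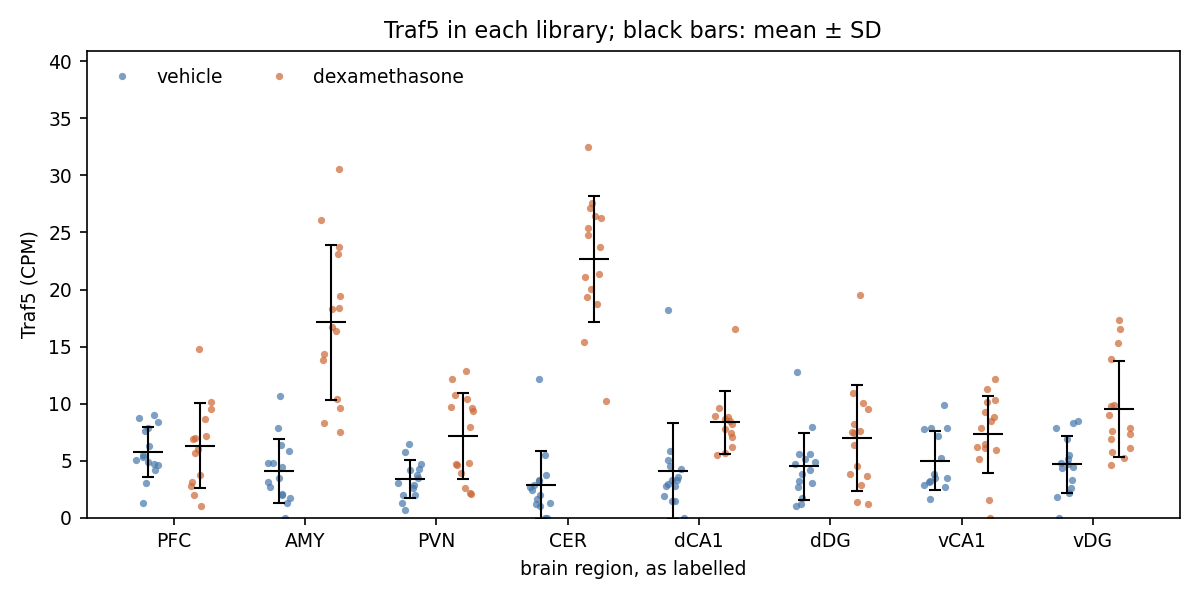
Traf5 level in CPM (vertical axis) in each library of the 8 regions (horizontal axis), vehicle in blue and dexamethasone in orange, with black bars for the mean ± SD. CER and AMY stand out after dexamethasone, with means of 22.7 and 17.1 CPM, while the means of PFC are 5.77 and 6.33 CPM.

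Il1r1 (ENSMUSG00000026072, chr1:40225080-40317257, plus strand), the signaling receptor for interleukin-1, was the receptor that moved. It passed the filter in the 4 hippocampal regions and rose in 3 of them. In vCA1 vehicle libraries held 1.97 to 17.1 CPM (median 6.56, n = 14) and dexamethasone libraries 4.05 to 53.4 CPM (median 20.1, n = 15), with an estimated change on the log2 scale of 1.64 ± 0.29 (SE, adjusted p = 8.51e-05, edgeR). In vDG the ranges were 7.27 to 41.2 CPM (median 12.9, n = 15) and 12.0 to 49.6 CPM (median 28.6, n = 15), a change of 0.96 ± 0.22 (SE, adjusted p = 0.00508, edgeR). In dDG they were 8.41 to 39.7 CPM (median 18.8, n = 15) and 11.2 to 66.2 CPM (median 43.1, n = 15), a change of 0.76 ± 0.21 (SE, adjusted p = 0.0351, edgeR). The arms overlapped in all of these, with 9 of 15 dexamethasone libraries above the highest vehicle library in vCA1 and in dDG, and 3 of 15 in vDG. In dCA1 Il1r1 was already high, at 12.8 to 45.6 CPM (median 28.0, n = 15) against 11.1 to 59.0 CPM (median 34.4, n = 13), and its change of 0.30 ± 0.17 did not pass (adjusted p = 0.513, edgeR).

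The dDG call depended on single libraries. Leaving out any 1 of 14 libraries ended it (vehicle 2, 4, 5, 6, 8, 9, 11 and 12, and dexamethasone 4, 6, 7, 11, 14 and 15), and over all 30 such fits the change lay between 0.68 and 0.84 with adjusted p of 0.00765 to 0.0796 (edgeR). In vDG, without the 7 libraries holding Gabra6, the change was 0.86 ± 0.22 (SE, adjusted p = 0.0208, edgeR), and in vCA1, without 1 such library, 1.67 ± 0.30 (adjusted p = 0.000109). In vCA1 the gene passed the filter through 12 dexamethasone libraries and 1 vehicle library, so its passing already implies a difference. Dentate granule cell markers moved with the arms in that region. Of the 8 listed, 5 were tested in vCA1 and 3 rose (Dsp, C1ql2 and Npnt), and their summed level was 128.9 to 379.1 CPM under vehicle and 140.9 to 986.2 CPM under dexamethasone. With the dentate marker level as a covariate the Il1r1 change was 1.10 (adjusted p = 0.0262, edgeR). Other tissue markers moved in vCA1 too. Of 5 cortex markers, all tested, 2 fell and 0 rose, with a list median of -0.59. The 1 choroid plexus marker tested fell (-2.27), and 1 of 3 amygdala markers tested rose. The part of these other markers in the vCA1 change of Il1r1 was not tested. In dDG none of the 8 tested dentate markers passed, and their sum was 180.1 to 2227 CPM under vehicle and 128.8 to 1794 CPM under dexamethasone. In vDG none of the 6 tested passed, with sums of 266.6 to 1296 CPM and 153.3 to 1015 CPM. In dCA1, where the Il1r1 change did not pass, 2 of the 8 fell, the list median was -0.38, and the sums were 676.1 to 1859 CPM under vehicle and 176.1 to 1678 CPM under dexamethasone. The part of the dentate markers in the Il1r1 values of dDG, vDG and dCA1 was not tested.

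In the other 4 regions Il1r1 was below the filter. With no filter it rose by 1.23 ± 0.23 (SE) in CER (adjusted p = 0.000173, edgeR), 1.12 ± 0.26 in AMY (adjusted p = 0.00435) and 0.92 ± 0.21 in PFC (adjusted p = 0.00258). Without the libraries holding Gabra6 it was 1.27 in CER and 0.95 in PFC, both still called. In CER the libraries went from 1.60 to 14.5 CPM (median 6.52, n = 15) to 5.25 to 30.5 CPM (median 18.7, n = 15). In AMY they went from 1.19 to 12.2 CPM (median 6.01, n = 15) to 2.16 to 21.9 CPM (median 14.2, n = 15). The arms overlapped in both, and 9 of 15 dexamethasone libraries in CER and 10 of 15 in AMY exceeded the highest vehicle library. In AMY the difference was positive within 3 of 4 plates and -0.46 within the remaining one. In PVN the estimate was 0.82 ± 0.31 (adjusted p = 0.184, edgeR). A difference of the Il1r1 response among regions was not shown (F = 2.78, adjusted p = 0.289, edgeR). Its vehicle level did differ (adjusted p = 4.69e-25, edgeR). The means were 27.7 ± 9.18 CPM (SD, n = 15) in dCA1, 22.9 ± 10.1 in dDG and 15.8 ± 9.20 in vDG, against 4.90 to 7.46 CPM in the other 5 regions. Neighbouring means in this order lay within 1 SD of each other, but in the fit dDG exceeded vDG (adjusted p = 0.0133, edgeR) and vDG exceeded PFC (adjusted p = 0.000602, edgeR), while the other neighbours did not differ by a called amount. The 3 regions at the top were also those with the most Prox1.

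**Figure D4:**
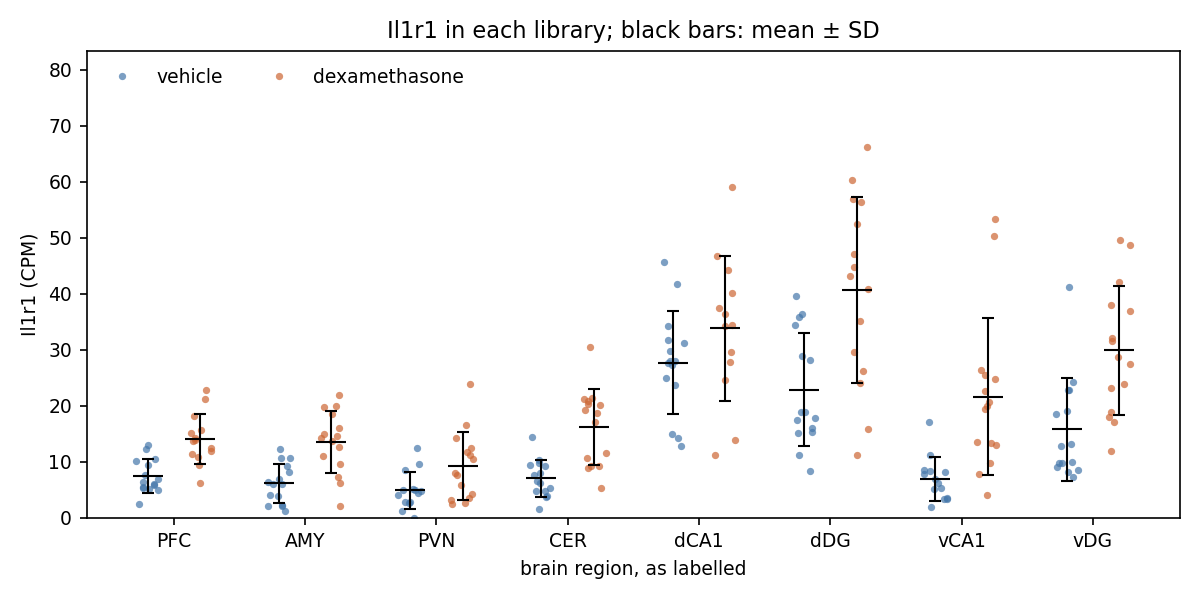
Il1r1 level in CPM (vertical axis) in each library of the 8 regions (horizontal axis), vehicle in blue and dexamethasone in orange, with black bars for the mean ± SD. Vehicle libraries are highest in dCA1, dDG and vDG, and the dexamethasone mean lies above the vehicle mean in every region, by 1.22 times in dCA1 to 3.13 times in vCA1.

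Tnfrsf1a (ENSMUSG00000030341, chr6:125349362-125362484, plus strand), the main signaling receptor for tumor necrosis factor, had a median of 7 counts per library and passed the filter in no region. With no filter, its 8 estimates ran from -0.46 ± 0.22 (SE) in AMY to -0.01 ± 0.24 in vDG, and none passed. Unadjusted p was 0.0399 in AMY and 0.0458 in PFC, and the smallest adjusted p was 0.378 (edgeR). In AMY, vehicle libraries held 7.83 to 24.3 CPM (median 12.5, n = 15) and dexamethasone libraries 1.85 to 19.5 CPM (median 8.74, n = 15). The arms overlapped over most of this range.

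Counted together, 50 of the 80 pairs of gene and region passed the low-count filter, and 12 rose: Nfkbia in 8 regions, Il1r1 in 3 and Traf5 in 1. Over all gene and region tests, 3.23% were higher. The 12 include Traf5 in CER and Il1r1 in vCA1, which passed the filter mostly or wholly through the dexamethasone arm, so the count supports nothing by itself. None fell, against 2.28% of all tested genes in CER, 2.28% in PFC, 2.11% in dCA1, 2.08% in AMY, 2.06% in PVN, 2.04% in vCA1, 1.37% in dDG and 1.29% in vDG. With no filter, 18 of the 80 rose (Nfkbia in 8, Il1r1 in 6 and Traf5 in 4), against 2.05% of all gene and region tests with no filter. The 18 include Traf5 in vDG, which was not called without the libraries holding Gabra6, and Il1r1 in dDG, whose call with the filter was ended by leaving out any 1 of 14 libraries. The other 7 genes rose in no region in either fit.

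The genes most like Nfkbia in level over the 16 group means, by Pearson correlation of log2 CPM with the 7923 other genes tested in every region, were Xdh (r = 0.983), Tinagl1 (0.978) and Zfp36 (0.975). Those most like Traf5, over 7924 genes, were Znfx1 (0.939), Sgk3 (0.922) and Sra1 (0.914). These are descriptions over group means that share animals and libraries. Zfp36, which promotes decay of inflammatory transcripts, rose in all 8 regions by 1.38 to 2.40 on the log2 scale. Only 2 to 7 vehicle libraries per region reached the level the filter asks for, against 13 to 15 dexamethasone libraries, so its passing already implies a difference. With no filter it was called higher in all 8 regions too, by 1.38 to 2.41 (adjusted p of 2.43e-05 or less, edgeR). Tsc22d3, the glucocorticoid-induced leucine zipper that binds NF-kappaB, rose in all 8 by 0.85 to 1.39, and the phosphatase gene Dusp1 rose in 5, by 0.54 to 0.80. The Dusp1 call in vDG was lost without the libraries holding Gabra6 (0.69, adjusted p = 0.0509, edgeR). With same-numbered libraries as a block its dCA1 call was lost (0.51, adjusted p = 0.0568, edgeR) and PVN was called (0.45, adjusted p = 0.0384).

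Other genes of the pathway were taken from 5 lists of 88 genes, of which 29 passed the filter in at least 1 region. Of 210 tests over gene and region, 23 were higher (11.0%) and 8 lower (3.81%), in 11 genes, against 3.23% higher and 1.94% lower over all gene and region tests. Of the 23, 16 came from Irak2 and Bcl2l1, and the lists were drawn up with earlier results known. Among kinases and ubiquitin ligases, 10 of 21 genes were tested in 80 tests, of which 10 were higher and 2 lower, with a median log2 fold change of 0.05. Irak2, a kinase-like adaptor of the interleukin-1 receptor pathway, supplied 8 of the 10, rising in every region by 0.57 ± 0.15 (SE) in PFC to 1.28 ± 0.17 in PVN. In PVN its libraries went from 3.56 to 26.1 CPM (median 11.1, n = 14) to 13.2 to 43.4 CPM (median 27.5, n = 15). The largest of its 8 adjusted p-values was 0.0353 (dDG, edgeR). In AMY Irak2 passed the filter through 14 dexamethasone libraries and no vehicle library, and in PVN, dCA1 and vDG through 12 to 15 dexamethasone and 5 or 6 vehicle libraries. With no filter it was called higher in all 8 regions too (adjusted p of 0.0467 or less, edgeR). Chuk, Ikbkg, Map3k7, Birc2, Rbck1 and Irak1, all tested in 8 regions, were called in none. Tab2, an adaptor of the kinase TAK1, fell in dCA1 and PVN, Tbk1 rose in dDG and Sharpin in vDG. With same-numbered libraries as a block Tab2 was also called in AMY (-0.25) and CER (-0.24). Both Tab2 calls were lost with no filter, with little change in size. The dCA1 estimate went from -0.27 to -0.26 (adjusted p = 0.0571, edgeR) and the PVN estimate from -0.24 to -0.25 (adjusted p = 0.0563). The Tbk1 call was lost with upper-quartile scaling, where the estimate went from 0.34 to 0.32 (adjusted p = 0.0548, edgeR). That of Sharpin was lost without the libraries holding Gabra6 (0.49, adjusted p = 0.0923, edgeR).

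The list of known NF-kappaB targets had 26 genes, of which 7 were tested, with a median log2 fold change of 0.02, and the called ones went both ways. Bcl2l1, which encodes the survival factor Bcl-xL, rose in all 8 regions by 0.57 ± 0.11 (SE) in PFC to 0.84 ± 0.12 in vDG, and the largest adjusted p was 0.000367 (edgeR). In vDG its libraries went from 39.1 to 114.1 CPM (median 68.6, n = 15) to 94.8 to 153.9 CPM (median 127.1, n = 15), so the arms overlapped only at their edges. Ier3, an early response gene, fell in 4 regions, by 0.69 ± 0.17 (SE) in AMY, 0.71 ± 0.15 in PVN, 0.87 ± 0.14 in PFC and 0.99 ± 0.27 in dDG, with adjusted p of 0.0255 or less (edgeR). In dDG it passed the filter through 12 vehicle and 3 dexamethasone libraries, and with no filter it was called lower in 5 regions. In PFC its libraries went from 20.1 to 37.9 CPM (median 30.1, n = 15) to 9.37 to 25.8 CPM (median 16.2, n = 14). In vDG its change of -0.54 did not pass with all libraries, and was -0.74 with an adjusted p of 0.0344 (edgeR) without the libraries holding Gabra6. In vCA1 its change of -0.62 did not pass either, and was -0.84 with an adjusted p of 0.0301 (edgeR) without the 3 dexamethasone libraries left out of the authors' tables. Ptgs2 rose in PFC, while Sod2, Vcam1 and Csf1 were tested in 8 regions and called in none. The inflammatory genes Ccl2, Cxcl10, Icam1 and Il6 were below the filter in every region.

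**Figure D5:**
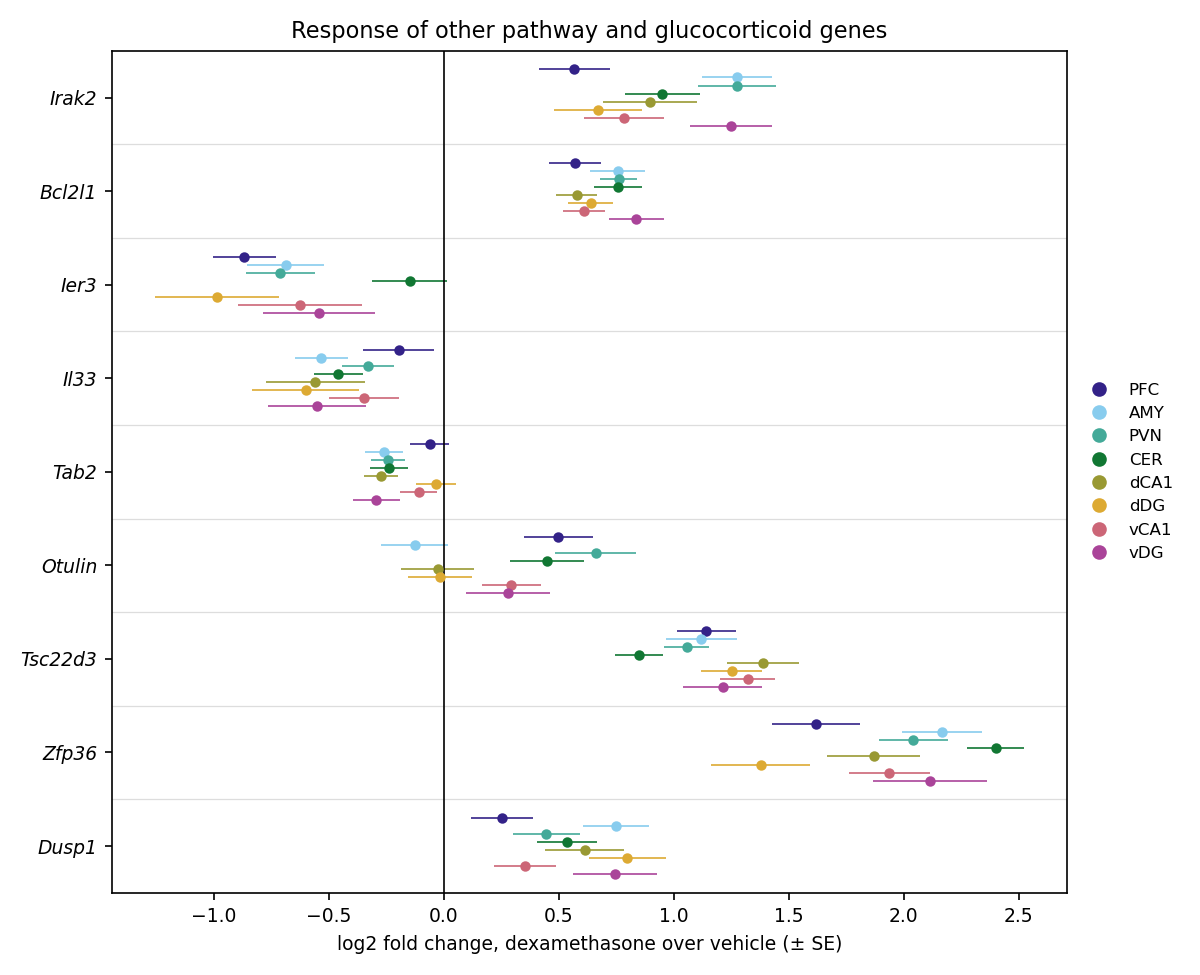
Log2 fold change of dexamethasone over vehicle (horizontal axis, bars ± SE) for 9 further genes, 1 circle per region in the color of the key. Irak2, Bcl2l1, Tsc22d3, Zfp36 and Dusp1 lie above 0 in every region, and Ier3, Il33 and Tab2 lie below 0 in every region where they were tested, although only part of these were called.

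Of 14 negative regulators, 7 were tested, and Otulin rose in PFC and PVN and Tollip in PFC, with a list median of 0.05. Of 20 ligands, receptors and adaptors, 4 were tested (Il1rap, Il18, Il33 and Tlr3), with a list median of -0.16. Il33 fell in AMY, by 0.53 ± 0.12 (SE), and in CER, by 0.46 ± 0.11, and Il1rap, the coreceptor of Il1r1, rose in vCA1, by 0.63 ± 0.14. With the dentate marker level as a covariate Il1rap was not called (0.29, adjusted p = 0.411, edgeR). With same-numbered libraries as a block Il33 was also called in PVN (-0.39) and Tollip in vDG (0.27). Of the 7 other subunits and IkappaB proteins, Nfkbiz alone was tested, in 2 regions, and not called. The median log2 fold change of all tested genes lay between -0.02 and 0.00 in every region. Tab2, Tbk1, Sharpin, Ptgs2, Otulin, Tollip, Il33 and Il1rap were named after their values were seen. Of the 88 genes, 36 entered the 8-region test of the response and none of these was called (smallest adjusted p = 0.132, edgeR), in a test that called 1.17% of all genes.

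Some markers of microglia and endothelium, cell types that can express these genes, also differed between arms. Neuron markers were called in 0 of 48 tests over gene and region. Astrocyte markers were called higher in 1 and lower in 1 of 64, and oligodendrocyte markers lower in 1 of 48. Of 12 microglial markers, Cx3cr1 and P2ry12 fell in all 8 regions, Siglech fell in PFC and Itgam in vDG, and Csf1r, C1qa, C1qb and Ctss were called in none. The summed level of the 12 was 604.5 to 1192 CPM under vehicle and 408.2 to 962.7 CPM under dexamethasone in AMY, and 404.3 to 863.6 CPM and 314.1 to 484.7 CPM in CER. Of 10 endothelial markers, Flt1, Slco1a4 and Kdr fell in all 8 regions, while Pecam1, Ly6c1, Esam and Abcb1a were called in none. Their summed level was 419.5 to 668.8 CPM under vehicle and 233.2 to 409.4 CPM under dexamethasone in AMY, and 253.2 to 740.2 CPM and 224.8 to 564.8 CPM in CER. In all 8 regions the median sum was lower under dexamethasone for both lists, at 359.2 to 671.5 CPM against 478.2 to 981.6 CPM for microglia and 280.7 to 380.9 CPM against 390.6 to 553.5 CPM for endothelium. No marker of either list was at 0 in all libraries. Fewer cells of a type and less RNA per cell cannot be told apart in punched tissue, and the part of these markers in the results above was not tested.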

How the data were processed

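The 10 genes, the pathway lists and the marker lists were chosen with earlier results of these data known. QuantSeq 3′ libraries carried UMIs, and the authors deposited counts per gene. The submitters' processing notes name mm10, cutadapt, UMI-tools 0.5.4, STAR 2.6.0a and featureCounts 1.6.4. Whether counting used strand is not given in the sources used here. The deposited log2-scale tables of variance-stabilised values served only to see which 7 libraries the authors left out there. Because a 3′ kit was used, levels were not compared between genes. The difference of Nfkbia and a subunit within a library was compared only between arms.

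Each region was fitted with edgeR 4.0.16 in R 4.3.3 (filterByExpr by arm, TMM, quasi-likelihood F test, Benjamini-Hochberg over the region's genes, 0.05). The SE is the log2 fold change over the root of F. One fit over all 16 groups gave the 8-region tests of the response, and a fit over the vehicle libraries gave those of the vehicle level. Contrasts between neighbouring regions came from that vehicle fit, without animal as a block. Named genes were the 10 genes, list genes called in 1 direction in 3 or more regions, the 3 genes most like Nfkbia and like Traf5 in pattern, and Tsc22d3, Zfp36 and Dusp1. All libraries were kept, and over 1611 pairs of libraries within groups, chi-square over its degrees of freedom was at least 1.34, so none was counted as a repeat. Across regions, the same number and arm marks the same animal per the labels, which pairs those libraries. Per the labels, same-numbered libraries of the 2 arms come from different animals but shared a plate in 115 of 115 pairs and a punching date in 109. Their deviations from the group means correlated at a median of 0.05 to 0.22 per region (r from -0.16 to 0.54), over 0.1 in 73 of 115 pairs, so the number was used as a block in an alternative fit. Alternatives were DESeq2 1.42.0, upper-quartile scaling, other filters, RIN, punching date and plate, blocks, and left-out libraries.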

Additional observations from a re-analysis of the deposited data

Results flagged for a closer look

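The response of Traf5 differed among the 8 regions by the test of the 7 region-by-treatment terms (F = 10.27, adjusted p = 3.28e-08, edgeR), and with no filter on low counts (F = 10.2, adjusted p = 6.68e-08, edgeR). The gene passed the filter through 33 dexamethasone libraries and 1 vehicle library, and its dependence on region was known when it was listed, so this is not independent evidence. Its log2 fold change without a filter on low counts ran from 0.15 ± 0.28 (SE) in PFC to 2.94 ± 0.25 in CER. The level was higher after dexamethasone within 4 of 4 punching dates and 4 of 4 plates in CER and in AMY. In PFC it was higher within 3 of 4 dates and 2 of 4 plates.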

How the results depend on the processing

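Alternatives were run for 24 genes (the 10, and Irak2, Bcl2l1, Ier3, Tsc22d3, Zfp36, Dusp1 and the 8 list genes named after their values were seen), and no called value changed sign. Estimates that were not called changed sign in 35 fits, all with an adjusted p of 0.873 or more before, among them Traf5 in PFC with no filter (from 0.15 to -0.0049 without the libraries holding Gabra6). Of the counts and ratio results, 139 values under alternatives kept their side of the threshold or lay within 1.5 times, and 2 moved. With the replicate block 543 genes changed in dDG, against 316 without it, and with a dentate covariate 279 genes changed in vCA1, against 497. Of single-gene values, 1431 kept their call, 14 gained one and 23 lost one. Of the 23, 14 were Il1r1 in dDG with 1 library left out, where its log2 fold change was 0.68 to 0.84 over 30 fits. The others were Traf5 in vDG with no filter and without the libraries holding Gabra6 (0.87), Ikbkb vehicle levels with upper-quartile scaling (F = 2.22), Dusp1 in dCA1 and vDG, Tab2 in dCA1 and PVN, Tbk1, Sharpin and Il1rap. The gains were Nfkbia vehicle levels with animal as the replicate block (F = 5.32), 2 of Ier3, 2 of Dusp1, 2 of Tab2, 1 of Otulin, 4 of Tollip and 2 of Il33. The replicate block changed 7 single-gene calls, all given beside the results, and no other call. The cause of these changes was not tested. Of 115 same-numbered pairs between arms, 32 correlated best with their own number, from 1 of 15 in vDG to 8 of 15 in CER. Leaving out the libraries holding Gabra6, the Il1r1 leave-one-out fits and the 8-region test with no filter were chosen after seeing the data. Depth limits Traf5, Rela and Tnfrsf1a most, with medians of 4, 8 and 7 counts per library.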
